A study of Mus musculus with 4 samples.

Results

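Genes for membrane fusion and vacuolar sorting were examined for the histone mark H3K79me2 in dendritic cells given lysine or PBS. The members are the protein-coding genes of the RefSeq table of GRCm38.p6 whose symbol begins with Stx, Vamp, Snap or Vps and a digit, or with Vti1. The rule uses names only and found 65 of 21900 protein-coding genes. By their known site of action 42 were classed as endosomal, 14 as secretory and 9 as neither. The names reach beyond SNAREs and sorting factors: Vps72 is a subunit of chromatin remodelling complexes, Snap91 is a clathrin assembly protein, and the 4 Vps13 genes encode lipid transfer proteins.

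H3K79me2 is a dimethyl mark in the core of histone H3 that Dot1l makes over transcribed genes, and its sites were mapped by ChIP-seq, the sequencing of immunoprecipitated chromatin. The cells were BMDCs, dendritic cells grown from the bone marrow of C57BL/6J mice, kept in RPMI medium with fetal bovine serum. One culture received 18 mM lysine for 6 h, the other PBS, for which the labels give no time. Each condition has 1 H3K79me2 library, whose peak list was analysed, and 1 input library, which was not analysed here.

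With 1 library per condition there is no spread between replicates and no test. Every value describes these 2 libraries. The lists hold no read totals, so depth is unknown. The lysine list had 9805 peaks over 5.4 Mb and the PBS list 11926 peaks over 6.78 Mb. Over all protein-coding genes the length under lysine peaks was 0.796 of that under PBS peaks. In chromatin from a whole culture, fewer cells with the mark and less mark per cell cannot be told apart. Of 15 dendritic and myeloid marker genes, 8 had a peak in lysine and 11 in PBS, beside 31.4% and 34.0% of all protein-coding genes. Their summed length under peaks was 7271 bp in lysine and 10935 bp in PBS, with 8 genes shorter and 3 longer in lysine. The most shortened were H2-Ab1, an MHC class II chain gene, with 0 bp in lysine and 2442 bp in PBS, and the costimulator gene Cd86, with 1081 and 2478 bp. Cd74, the invariant chain gene, was longer, with 2134 bp in lysine and 900 bp in PBS. The dendritic cell integrin gene Itgax had 431 bp in lysine and 935 bp in PBS. The part of these markers in the members' values was not tested. No peak lay on Spi1, Irf4, Csf2rb or H2-Aa in either library. None of 6 B cell and 6 erythroid genes had a peak, 1 of 8 T and NK cell genes had one in both libraries (Cd3d, 555 bp in lysine and 519 bp in PBS), and 1 and 2 of 8 neutrophil genes had one in lysine and in PBS. Of 6 neuronal and hepatic genes 1 had a peak in lysine (Syn1, 22 bp) and 0 in PBS.

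SNARE proteins sit on vesicles and on their target membranes and zip together into bundles that pull the membranes into fusion. Syntaxins (Stx), the Snap proteins and Vti1 give the strands usually found on the target side, and Vamp proteins the strand usually found on the vesicle. Vps proteins, first found in yeast mutants that missort vacuolar proteins, build the tethers, coats and scission machines that act before fusion. HOPS and CORVET tether endosomes and lysosomes, retromer and Commander return cargo from endosomes, ESCRT complexes bud vesicles into multivesicular bodies, and GARP and EARP tether carriers at the Golgi and at recycling endosomes. In dendritic cells these routes carry captured antigen to the compartments where MHC molecules are loaded, and secretory SNAREs release cytokines and bring proteins to the surface.

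Starts of 4 members are shown because their windows lay under a peak and these were the marked members of that kind with the largest difference between the libraries. A gene is called marked here if at least 500 bp of its body lay under broad peaks. The RefSeq windows (GRCm38.p6) run from 250 bases before to 50 bases after a listed start, and 47 members had at least 1 window. The windows of Stx7, Stx11 and Vps25 lay under PBS peaks over all 300 bases and under no lysine peak. That of Stx4a lay under a lysine peak over 291 bases and under a PBS peak over 262. The windows are Stx7 at chr10:24149067-24149366 (plus strand), Stx11 at chr10:12964210-12964509 (minus), Vps25 at chr11:101253457-101253756 (plus) and Stx4a at chr7:127841558-127841857 (plus). Capitals mark every match, on either strand, to the 5 motifs searched. A GC box was taken as GGGCGG and a CCAAT box as those letters. For the E box, which transcription factors of lysosomal genes also bind, the letters were CACGTG. An ETS core, bound by factors of the ETS family, was read as CCGGAA. The TATA box was read as TATAAA.
Stx7: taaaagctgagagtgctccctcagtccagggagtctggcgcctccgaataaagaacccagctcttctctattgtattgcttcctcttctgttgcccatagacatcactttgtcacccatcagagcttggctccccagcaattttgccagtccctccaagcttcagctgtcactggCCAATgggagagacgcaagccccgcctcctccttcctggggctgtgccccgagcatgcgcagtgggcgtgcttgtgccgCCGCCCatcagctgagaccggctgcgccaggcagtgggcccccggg
Stx11: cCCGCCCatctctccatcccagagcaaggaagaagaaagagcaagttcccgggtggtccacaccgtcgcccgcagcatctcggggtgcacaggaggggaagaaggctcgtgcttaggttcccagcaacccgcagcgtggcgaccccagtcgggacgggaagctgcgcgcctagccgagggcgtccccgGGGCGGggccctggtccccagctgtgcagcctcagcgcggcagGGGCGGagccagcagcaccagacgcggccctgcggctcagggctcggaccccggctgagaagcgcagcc
Vps25: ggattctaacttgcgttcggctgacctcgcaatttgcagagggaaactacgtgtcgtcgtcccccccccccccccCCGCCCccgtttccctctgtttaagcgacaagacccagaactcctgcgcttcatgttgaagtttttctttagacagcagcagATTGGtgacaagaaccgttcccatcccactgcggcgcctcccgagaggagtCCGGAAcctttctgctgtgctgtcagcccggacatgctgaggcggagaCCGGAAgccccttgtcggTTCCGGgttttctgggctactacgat
Stx4a: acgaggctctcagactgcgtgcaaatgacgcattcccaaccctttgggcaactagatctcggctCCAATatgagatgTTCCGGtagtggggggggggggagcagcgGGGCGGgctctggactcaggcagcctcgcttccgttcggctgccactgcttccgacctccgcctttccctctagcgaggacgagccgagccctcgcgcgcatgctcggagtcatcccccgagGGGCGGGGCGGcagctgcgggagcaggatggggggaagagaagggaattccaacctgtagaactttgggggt

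Each of the 4 windows is rich in G and C, and none holds an E box or a TATA box. The G and C content is 60.3% in Stx7, 71.0% in Stx11, 58.3% in Vps25 and 64.3% in Stx4a, with 12, 27, 21 and 23 CpG sites. The medians over the 57 windows of members are 60.3% and 21 sites, and those over all 32851 windows 52.7% and 7 sites. Stx7 holds 1 GC box and 1 CCAAT box, Stx11 has 3 GC boxes, and Vps25 has 1 GC box, 1 CCAAT box and 3 ETS cores. Stx4a has 3 GC boxes, a pair of which overlap by a base, with 1 CCAAT box and 1 ETS core. Of all windows 35.7% hold a GC box, 37.4% a CCAAT box, 7.15% an E box, 14.9% an ETS core and 13.6% a TATA box. The shares among windows of members are 63.2%, 28.1%, 12.3%, 33.3% and 8.77%. A match describes letters and not a bound factor.

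Most members carried the mark, and more of them in PBS than in lysine. A peak lay on 37 members in lysine and on 45 in PBS, while 31.4% of all protein-coding genes had one in lysine and 34.0% in PBS. Both libraries had a peak on 34 members (26.7% of all genes), lysine alone on 3 (4.68% of all genes) and PBS alone on 11 (7.32% of all genes). Marked were 11 members in lysine and 15 in PBS, beside 9.02% and 11.4% of all genes. Both libraries marked 5 members (6.23% of all genes), lysine alone 6 (2.79%) and PBS alone 10 (5.13%). Members are longer than most genes, with a median of 28121 bp against 17146 bp, and longer genes have more room for a peak. Among genes of at least 10 kb, a minimum chosen after the data were seen, a peak lay on 34 of 56 members in lysine and 41 in PBS, against 38.5% and 41.7% of all such genes. Of these 56 members 11 and 14 were marked, against 12.1% and 15.5%.

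Covered length leaned to PBS, as it did over all genes. In lysine 29 members were shorter (22.5% of all genes) and 19 longer (16.1%). Over all genes these counts were 4931 and 3516, so a lean in sign was not particular to the members. Without members that overlap another gene, 18 members were shorter and 16 longer. A shortfall of at least 500 bp was found in 10 members (4.26% of all genes) and an excess of that size in 2 (1.83%). Among genes of at least 10 kb these were 9 and 2 of 56 members, against 5.94% and 2.45%. Summed over the members the covered length was 15.2 kb in lysine and 26.5 kb in PBS, a ratio of 0.575 beside 0.796 over all genes. Without Vps13d, which alone gave 1616 bp in lysine and 4471 bp in PBS and was left out after the data were seen, the ratio was 0.618. When both lists were held to the same number of peaks, taking the strongest, it was 0.688 beside 0.95 over all genes. The lean was not seen in counts of the members' strongest peaks. With a −log10 q of 5 or more, 10 members were shorter and 12 longer in lysine, and 4 were marked in lysine and 2 in PBS. Counts over all genes are not given for this minimum, so those of the members only describe the members. The ratio was then 0.734 beside 0.738 over all genes.

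**Figure D1:**
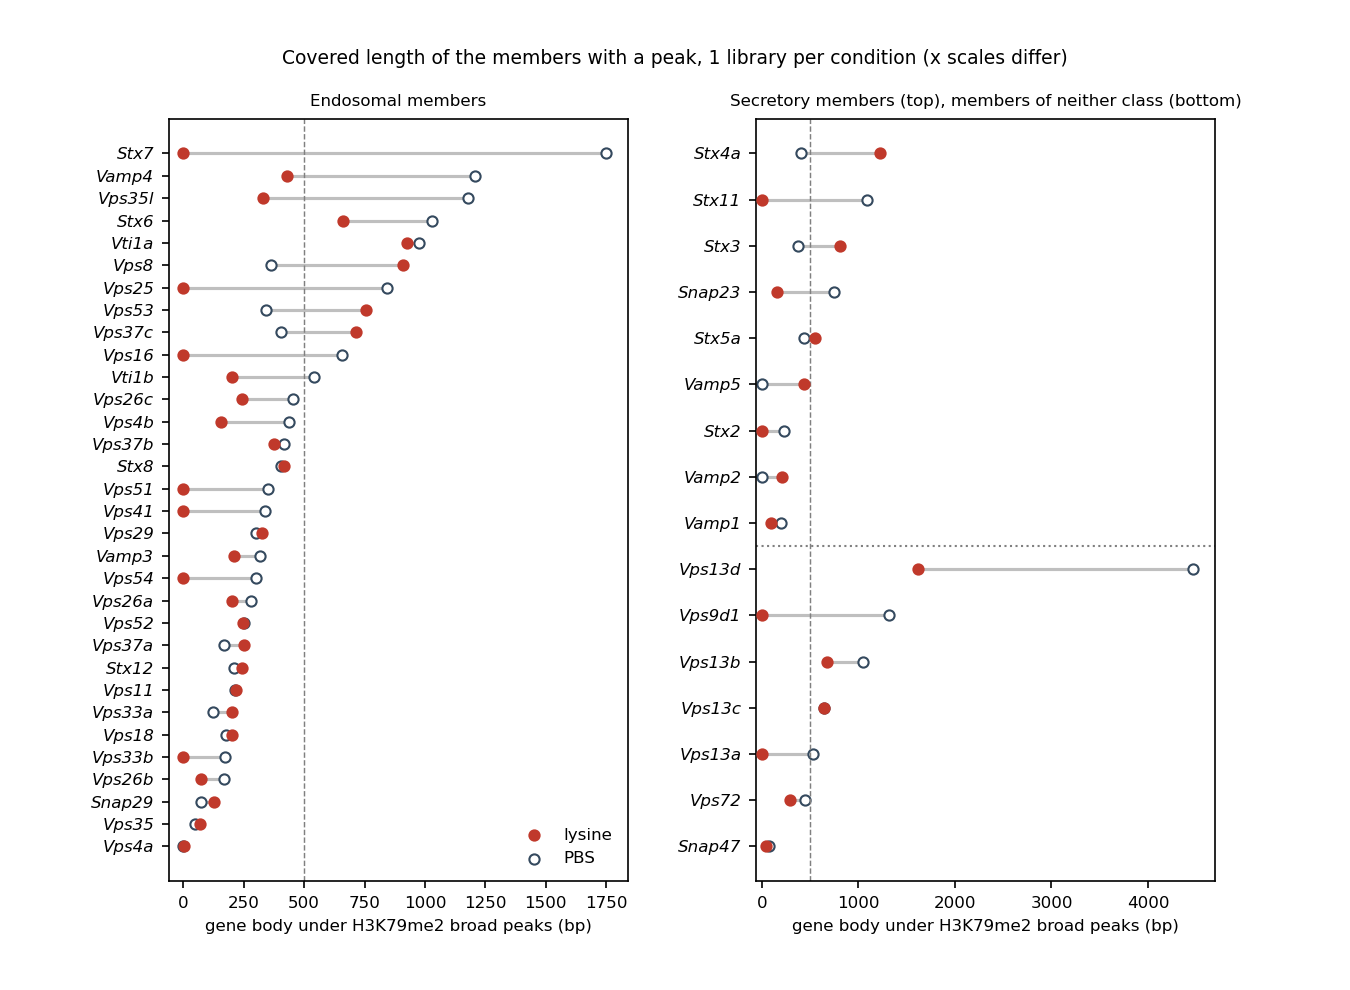
Covered length in bp (horizontal axis, a different scale in each panel) of the 48 members with a peak; filled points are lysine and open points PBS, 1 library each, and the dashed line is 500 bp. Stx7, Stx11 and Vps9d1 stand at 0 in lysine and above 1000 bp in PBS, while Stx4a is the secretory member farthest to the right in lysine (1219 bp).

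Among SNAREs of late endosomes and lysosomes, Stx7 differed most. It encodes the syntaxin that pairs with Stx8, Vti1b and Vamp8 in fusion of late endosomes. Stx7 (chromosome 10, 24149289 to 24188961) had 0 bp covered in lysine and 1751 bp in PBS. The PBS peaks lay over the start shown above (24149048 to 24149371, 324 bp, 83 bp of it in the gene) and inside the gene (24164548 to 24166215, 1668 bp). The inner peak was centred 16064 bp after the nearest listed start, had a fold of 4.55 over background and stood at percentile 49.6 of its list by −log10 q, the caller's significance. That wide region contained a single narrow block. The nearest lysine peak was 361724 bp from the gene. Among peaks with a −log10 q of 5 or more, Stx7 had none in either library.

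Its partners differed less. Stx8 had 418 bp in lysine and 406 bp in PBS, from a single peak in each library at the same place, 8797 and 8756 bp after the start. Vti1b (chromosome 12, 79156017 to 79172685) had 201 bp in lysine and 540 bp in PBS at its start, where the lysine peak was weak (percentile 4.58 of its list, against 31.8 in PBS). It overlaps Arg2, but none of the covered length lies in both genes. No peak lay on Vamp8, the vesicle SNARE of this bundle, in either library. For Vamp7, another vesicle SNARE of lysosomes, no peak was found, but the table's coordinates on the X (10737 to 39191) fall in the unsequenced stretch at the start of that chromosome, so its state is undetermined. Over these 5 genes the sum was 619 bp in lysine and 2697 bp in PBS, a ratio of 0.23 beside 0.796 over all genes. Stx7 alone gave 1751 bp of the PBS sum, so the ratio rests largely on 1 gene. Vamp7 was counted as 0 bp.

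Of the 4 SNAREs that return carriers from endosomes to the trans-Golgi network, 2 were marked in lysine and 3 in PBS. Of all protein-coding genes 9.02% and 11.4% were marked. Vamp4, the vesicle SNARE of this route (chromosome 1, 162570515 to 162599082), had 430 bp in lysine and 1208 bp in PBS. A PBS peak of 1470 bp (162570253 to 162571722) spanned the start, and the lysine peak of 430 bp (162571262 to 162571691) lay within its downstream part. Stx6, a syntaxin of the same bundle (chromosome 1, 155158628 to 155207567), had 662 bp in lysine and 1028 bp in PBS. Its peaks began within a few bases of each other, at 155158482 in lysine and 155158473 in PBS, and the PBS peak ran on to 155159655, past the lysine end at 155159289. The lysine peak was the stronger within its own list, at percentile 68.0 against 54.8 in PBS. Among peaks with a −log10 q of 5 or more, Stx6 kept 662 bp in lysine and none in PBS. Its peaks lay on either side of that minimum, at 5.23 in lysine and 4.33 in PBS. Vti1a had 925 bp in 3 lysine peaks and 976 bp in 2 PBS peaks, and the lysine peak with no PBS partner lay 214188 bp after the start. Stx16, which joins them, had no peak in either library.

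**Figure D2:**
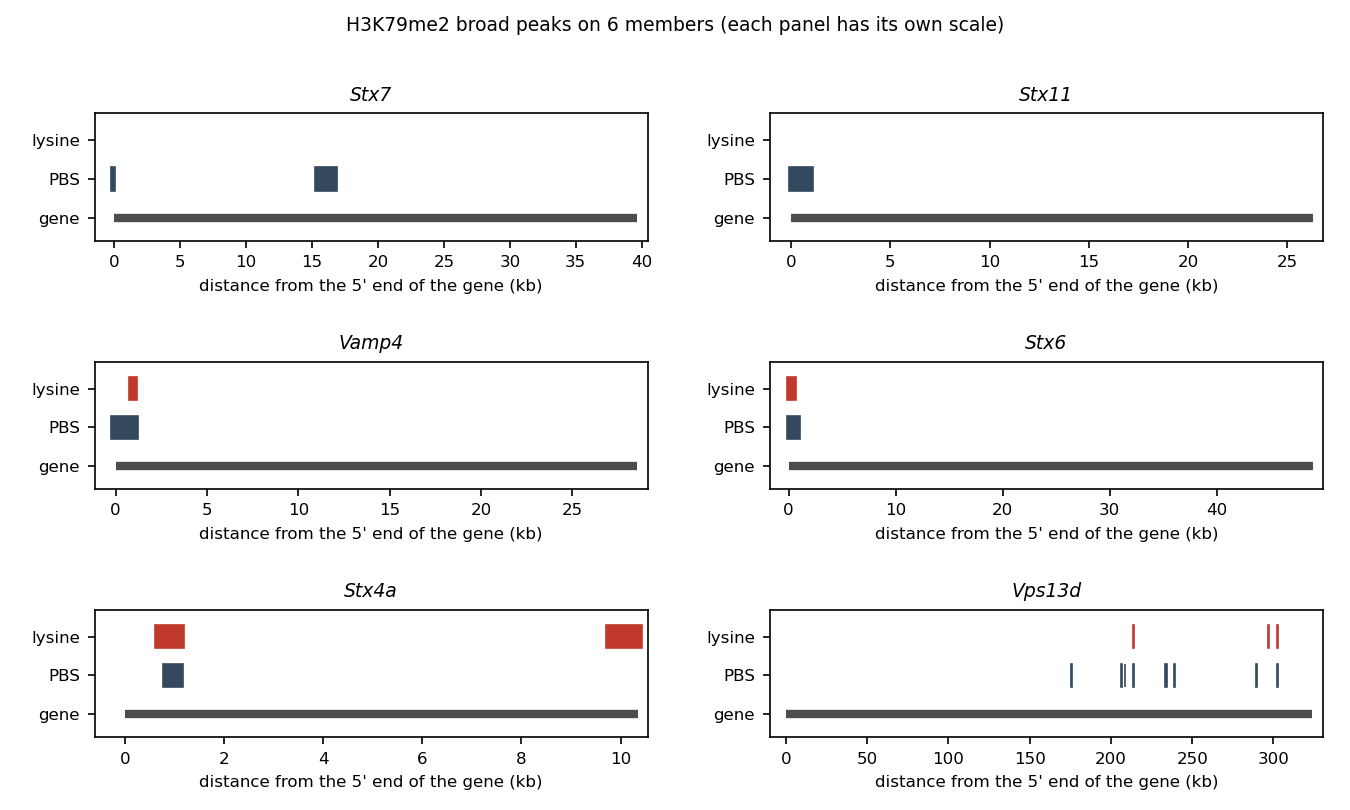
Positions of broad peaks on 6 members, in kb from the 5′ end of each gene (horizontal axis, a different scale in each panel), with lysine peaks above PBS peaks and the gene as a dark bar. Stx7 and Stx11 have PBS peaks only, Vamp4 and Stx6 have a longer PBS peak at the start, Stx4a has 2 lysine peaks against 1 in PBS, and Vps13d has 3 lysine and 8 PBS peaks in the part away from its start.

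The other endosomal SNAREs had little covered length or none in either library. Stx12, a syntaxin of early and recycling endosomes, had 244 bp in lysine and 210 bp in PBS, and Vamp3, the vesicle SNARE of recycling endosomes, 211 bp and 316 bp. Snap29, which acts with Stx17 in fusion of autophagosomes with lysosomes, had 129 bp in lysine and 73 bp in PBS, since most of its peaks of 837 and 586 bp lay outside the gene. Stx17 had no peak in either library.

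HOPS and CORVET genes differed in both directions. Vps16, of the core that both tethers share (chromosome 2, 130424320 to 130444269), had 0 bp in lysine and 655 bp in PBS. Its PBS peak sat on the start with a modest −log10 q of 2.29 (percentile 15.9), and 322 bp of the covered length also lie in Pced1a. Vps8, found in CORVET only (chromosome 16, 21423118 to 21644681), had 908 bp in lysine and 363 bp in PBS. A lysine peak of 626 bp (21423105 to 21423730) lay on its start, where PBS had none, and the remaining lysine and PBS peaks lay 219014 and 207628 bp downstream and did not overlap. The core genes Vps11, Vps18 and Vps33a had 220, 201 and 201 bp in lysine and 214, 178 and 123 bp in PBS. Vps41, a HOPS subunit, had 0 bp in lysine and 337 bp in PBS, and Vps33b, a relative of Vps33a, 0 and 172 bp. The HOPS subunit gene Vps39 had no peak, nor had Vps45, whose product binds syntaxins.

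Each of the 6 genes of retromer and Commander had a peak in both libraries, as did 26.7% of all protein-coding genes. Apart from an inner PBS peak of Vps35l, the peaks on these 6 genes lay at a gene end. The largest difference was in Vps35l, a scaffold of the Commander assembly (chromosome 7, 118740178 to 118841491), with 328 bp in lysine and 1177 bp in PBS. At one end of the gene a lysine peak of 328 bp (118740439 to 118740766) lay within a PBS peak of 828 bp (118740074 to 118740901), and a second PBS peak 43068 bp inside had no lysine partner. The lysine peak was among the weakest of its list (percentile 5.11). Its partner Vps26c had 243 bp in lysine and 453 bp in PBS, and Vps29, which serves both assemblies, 325 and 299 bp. The retromer genes Vps26a, Vps26b and Vps35 had 200, 72 and 68 bp in lysine and 281, 167 and 48 bp in PBS.

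Of the 9 genes of ESCRT and its ATPases, 1 was marked in each library (11.1%), and not the same gene. This was near the share over all genes, 9.02% in lysine and 11.4% in PBS. Vps25, a subunit of ESCRT-II (chromosome 11, 101252326 to 101259551), had 0 bp in lysine and 844 bp in PBS. Its PBS peak (101253192 to 101254035) covered the start shown above, with a fold of 3.92 and percentile 21.5. Vps37c, a subunit of ESCRT-I (chromosome 19, 10688735 to 10714628), had 714 bp in lysine and 406 bp in PBS. Both libraries had a peak at its start, and lysine a further peak 4505 bp downstream. The related Vps37a and Vps37b had 250 and 377 bp in lysine and 169 and 418 bp in PBS. For the ATPase genes that take ESCRT filaments apart, Vps4b had 155 bp in lysine and 436 bp in PBS, and Vps4a 4 bp and 0 bp, the lysine peak lying just upstream. Vps28, Vps36 and Vps37d had no peak on the gene.

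GARP and EARP genes had little covered length, apart from Vps53. Vps53, a subunit of both tethers (chromosome 11, 76046226 to 76179638), had 755 bp in lysine and 342 bp in PBS. The 2 lysine peaks lay 43759 and 48422 bp after its start and the PBS peak lay at the start, so the libraries shared none of this length. Each of these peaks was weak within its own list, at percentiles 24.3 and 13.8 in lysine and 4.85 in PBS. Vps52 had 246 bp in lysine and 252 bp in PBS, and Vps51 and Vps54 had 0 bp in lysine and 349 and 299 bp in PBS. Vps50, which replaces Vps54 in EARP, had no peak.

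Secretory SNAREs differed in both directions. Their sums were close, 3.47 kb in lysine and 3.49 kb in PBS, but this changed with the peaks counted. The ratio of lysine to PBS was 0.58 with a −log10 q of 2 or more and 2.038 with 5 or more. Stx11, a syntaxin needed in humans for release of lytic granules (chromosome 10, 12938217 to 12964498), had 0 bp in lysine and 1094 bp in PBS. A single PBS peak of 1207 bp (12963405 to 12964611) lay over its start with a fold of 4.21 and percentile 33.9. Snap23, the widely used partner of surface syntaxins (chromosome 2, 120567655 to 120601255), had 159 bp in lysine and 752 bp in PBS. Its lysine peak lay on the start (120567399 to 120567813, percentile 73.5), where PBS had no peak, and both PBS peaks lay inside the gene, 4703 and 10799 bp after the start. Among peaks with a −log10 q of 5 or more, this lysine peak alone was left.

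Stx4a, a syntaxin of the plasma membrane (chromosome 7, 127840643 to 127850988), had 1219 bp in lysine and 410 bp in PBS. Its peaks over the listed start overlapped (127841261 to 127841848 in lysine, 127841410 to 127841819 in PBS), at percentiles 71.5 and 39.9. The rest came from a lysine peak at the far end (127850358 to 127851081) whose −log10 q of 1.39 stood at percentile 0.602 of its list. Stx3, also a surface syntaxin (chromosome 19, 11775118 to 11821569), had 812 bp in lysine and 371 bp in PBS at the same inner place. There the lysine region was wide and weak, with a −log10 q of 1.91 at percentile 10.2 of its list. The PBS peak stood at percentile 61.1 of its own. Once peaks under a −log10 q of 2 were dropped lysine had none (-371 bp). Stx5a, the syntaxin of traffic between endoplasmic reticulum and Golgi (chromosome 19, 8741424 to 8755642), held strong peaks, with 547 bp in lysine and 436 bp in PBS. These start peaks stood at percentiles 92.4 and 89.7, and with 2 kb added at each gene end the difference was -110 bp.

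The remaining secretory members had short peaks or none. Vamp5 and Vamp2 had 435 and 206 bp in lysine and none in PBS. Stx2 had 0 bp in lysine and 230 bp in PBS, and Vamp1 91 and 199 bp. No peak lay on Stx1a or Snap25, neuronal SNAREs of synaptic release, nor on Stx18 or Stx19.

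The Vps13 genes are long genes for proteins that carry lipids between membranes, and Vps13d had the longest covered length of any member in each library. Vps13d (chromosome 4, 144871045 to 145195037) had 1616 bp in 3 lysine peaks and 4471 bp in 8 PBS peaks. Each of them lay at least 171324 bp downstream of the listed starts. Lysine and PBS peaks overlapped at 2 places, 144892295 to 144893072 with 144892259 to 144893169 and 144980973 to 144981442 with 144980839 to 144981445. The other 6 PBS peaks had no lysine partner, and their strength varied. That at 145019150 to 145019535 had a −log10 q of 5.62 (percentile 69.1). The longest, 978 bp at 144960607 to 144961584, had a −log10 q of 1.53 (percentile 0.91) and held no narrow block. The difference of the gene was -2855 bp as reported. It was -1877 bp with a −log10 q of 2 or more and -1431 bp with equal numbers of peaks. Of the covered length 907 bp in lysine and 1178 bp in PBS also lie in Dhrs3, which overlaps Vps13d.

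Vps13b had 679 bp in lysine and 1048 bp in PBS, in 2 and 3 peaks, of which 1 in each library overlapped. Its lysine peak at one gene end (35371187 to 35371555, percentile 51.1) had no PBS partner, and with equal numbers of peaks the gene was 285 bp longer in lysine. Vps13c had nearly the same length in both libraries, 647 bp in lysine and 645 bp in PBS. Its inner peaks (67844987 to 67845529 in lysine, 67844974 to 67845503 in PBS) were strong in both lists, at percentiles 78.7 and 93.3. Vps13a had 0 bp in lysine and 534 bp in PBS, from a PBS peak on its start (16780538 to 16781356, percentile 60.2).

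Of the other members of neither class, Vps9d1 differed most. Its product carries a VPS9 domain, a fold that in other proteins activates Rab5 GTPases. Vps9d1 (chromosome 8, 123242356 to 123254222) had 0 bp in lysine and 1314 bp in PBS. A PBS peak of 1139 bp (123253247 to 123254385) lay at one gene end and another of 338 bp 3146 bp inside, and 28 bp lie in the overlapping Zfp276 too. Vps72 had 295 bp in lysine and 443 bp in PBS, and Snap47 42 and 75 bp. Snap91 and Vamp9 had no peak.

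Peaks at gene ends were mostly called in both libraries, and peaks inside the members less often. Within 1 kb of a gene end, 27 of 33 lysine peaks (81.8%, exact binomial 95% interval 64.5 to 93.0) and 27 of 37 PBS peaks (73.0%, 55.9 to 86.2) were overlapped by the other list. Inside the genes these were 7 of 15 lysine peaks (46.7%, 21.3 to 73.4) and 7 of 25 PBS peaks (28.0%, 12.1 to 49.4). The PBS peak of Vps25 counts as inside, centred 1288 bp from the nearer gene end, though it covered a listed start. Over all protein-coding genes the shares were 84.6% in lysine and 79.1% in PBS at gene ends, and 68.2% and 49.7% inside. Over all places on genes, 78.5% of lysine peaks and 66.3% of PBS peaks were overlapped, beside 34 of 48 and 34 of 62 on the members. The intervals cover counting error only and treat peaks as independent. Since 8 of the interior PBS peaks lie on Vps13d, they may be too narrow and do not test a difference from all genes. Interior peaks on members were also weaker within their lists. Their median percentile was 24.3 in lysine and 30.8 in PBS, against 40.3 and 42.1 over all genes. Of the 47 members with a listed start, 22 in lysine and 26 in PBS had a peak centred within 1 kb of it. The same share over all genes was not computed, so these counts only describe the members.

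No lysine peak on a member reached 1 kb, and 6 PBS peaks did. The widest were 837 bp in lysine and 1668 bp in PBS. These were 0 of 48 lysine peaks and 6 of 62 PBS peaks, beside 665 of 7261 (9.16%) and 920 of 8610 (10.7%) on all protein-coding genes. The PBS peaks of this width lay on Stx7, Vamp4, Stx11, Stx6, Vps9d1 and Vps26c. Members' peaks were of middling strength in both lists, with a median percentile of 51.0 in lysine and 46.0 in PBS.

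**Figure D3:**
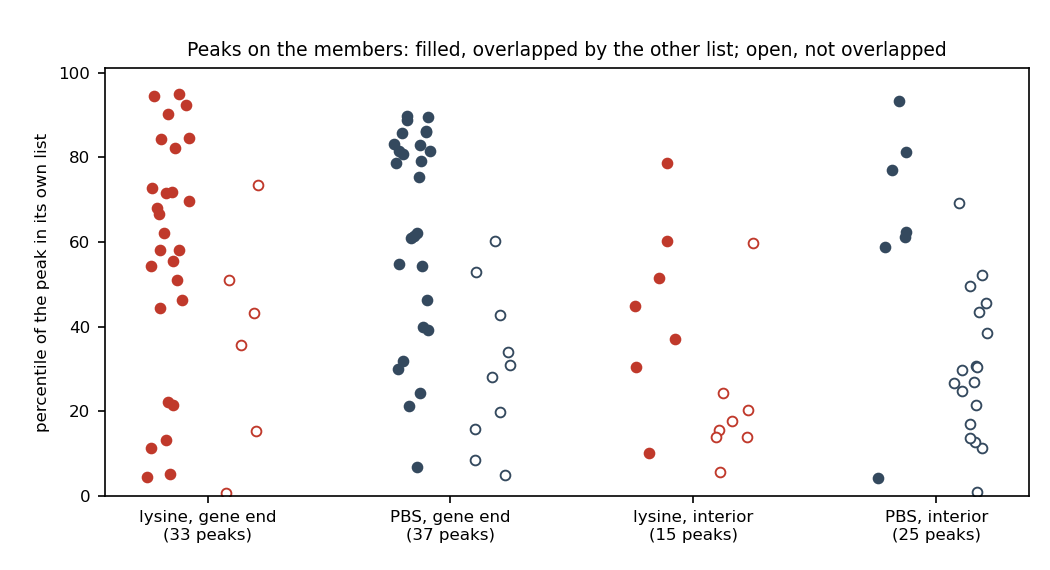
Strength of each peak on a member, as the percentile of its −log10 q within its own list (vertical axis), for peaks within 1 kb of a gene end and for interior peaks of each library. Filled points are overlapped by a peak of the other list; most interior peaks without a partner lie below percentile 50 and 18 of them are PBS peaks.

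Summed by side, the endosomal members were shorter in lysine and the secretory members were nearly level, a contrast that changed with the peaks counted. The 42 endosomal members had 8.49 kb in lysine and 14.5 kb in PBS, a ratio of 0.586 beside 0.796 over all genes. The 14 secretory members had 3.47 kb in lysine and 3.49 kb in PBS, a ratio of 0.993 beside the same 0.796. The 9 of neither class had 3.28 kb in lysine and 8.53 kb in PBS, a ratio of 0.384. Of the endosomal members 19 were shorter in lysine and 13 longer, and of the secretory members 4 and 5, while 22.5% of all genes were shorter and 16.1% longer. The counts over all genes, 4931 and 3516, lean the same way as the endosomal ones. The difference between the sides was not tested. It rested on few genes, left out after the data were seen: without Stx11 the secretory ratio was 1.447 and without Stx4a 0.73, and without Stx7 the endosomal ratio was 0.666. With only peaks of fold of at least 4 the ratios were 0.473 for endosomal and 0.57 for secretory members, so the sides then lay close together. With a −log10 q of 2 or more they were 0.549 and 0.58. By narrow blocks they were 0.681 and 0.633, with the secretory one the lower. Under each of the 8 alternative treatments of peaks and genes, the fold minimum among them, the endosomal ratio was below 1. So was the ratio over all genes, which ranged from 0.705 to 0.95. The endosomal ratio lay below it each time, but only narrowly with a −log10 q of 5 or more (0.692 beside 0.738). The secretory ratio ranged from 0 to 2.038.

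**Figure D4:**
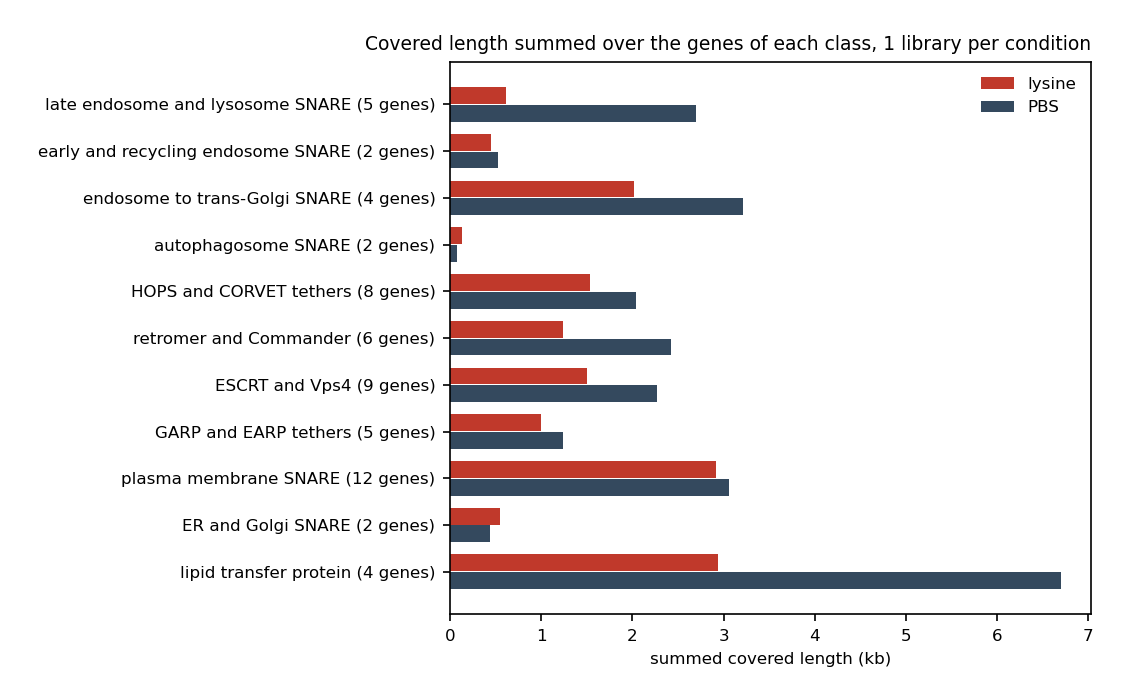
Covered length in kb (horizontal axis) summed over the genes of each class, with lysine above PBS. Late endosome and lysosome SNAREs (0.619 kb in lysine, 2.7 kb in PBS) and lipid transfer proteins (2.94 and 6.7 kb) show the widest gaps, and plasma membrane SNAREs are nearly level (2.92 and 3.06 kb). In PBS, Stx7 alone gave 1751 bp of the first of these classes and Vps13d 4471 bp of the second.

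**Figure D5:**
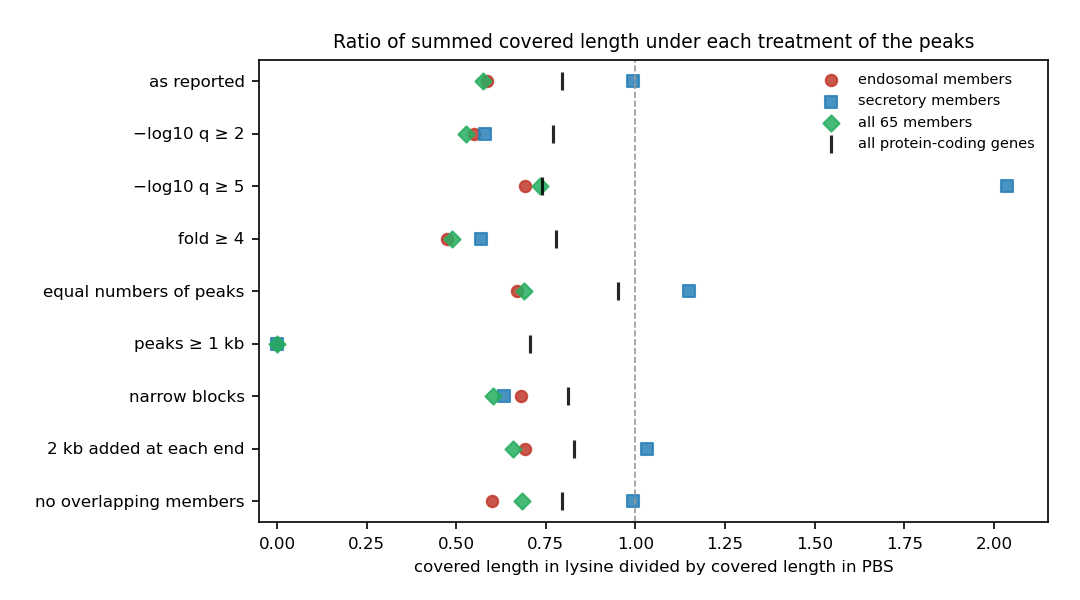
Covered length in lysine divided by that in PBS (horizontal axis), as reported and under each treatment of the peaks or genes (rows), for endosomal members, secretory members, all 65 members and all protein-coding genes. Endosomal members and all protein-coding genes lie left of the dashed line at 1 in every row, while secretory members cross it and reach 2.038. With peaks of 1 kb or more all member ratios are 0.

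Genes of the same pathways with other names also leaned to PBS, by a ratio near that of all genes. Of 93 such genes 55 had a peak in lysine and 60 in PBS, beside 31.4% and 34.0% of all genes, and 11 and 17 were marked, beside 9.02% and 11.4%. The list took in SNAREs such as Ykt6, the factors that take SNARE bundles apart, ESCRT, sorting nexins, endosomal tethers and the exocyst. In lysine 41 of them were shorter (22.5% of all genes) and 24 longer (16.1%), and 8 and 2 were so by at least 500 bp (4.26% and 1.83% of all genes). The sum was 19.1 kb in lysine and 26.5 kb in PBS, a ratio of 0.722 beside 0.796 over all genes. Unc13a, which primes vesicles for release and overlaps Colgalt1, had 1185 bp in lysine and 2832 bp in PBS. The length lying in both genes was not measured. The Unc13a difference was -57 bp at a fold of 4 or more, -678 bp with equal numbers of peaks and 0 with a −log10 q of 5 or more. With 2 kb added at each gene end it was -2449 bp. Pdcd6ip, which encodes the ESCRT adaptor Alix, had 765 bp in lysine and 1864 bp in PBS, and the sorting nexin gene Snx5 0 and 908 bp. The other way went Vac14, a scaffold of the kinase that makes phosphatidylinositol bisphosphate on endosomes, with 839 bp in lysine and 0 bp in PBS. Exoc2 of the exocyst, which overlaps Hus1b, had 894 and 295 bp, and the SNARE gene Ykt6 360 and 29 bp. Also among the genes with the most covered length were Ubap1 and Chmp4b of the ESCRT machinery, with 1395 and 1219 bp in lysine and 1127 and 1291 bp in PBS. The early endosome tether Eea1 had 641 bp in lysine and 1039 bp in PBS.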

How the data were processed

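Peak lists of 1 lysine and 1 PBS H3K79me2 library were analysed. Per the submitters' processing notes, the tools were MACS2 2.1.2, Bowtie2 2.3.4.1, Picard, ChIPseeker, FastQC, Trimmomatic 0.38 and cutadapt 1.18, on GRCm38. For their roles, the calling thresholds and any use of the inputs, nothing is stated in the labels. The deposited files have no header and were read by the MACS2 broad layout. The authors' deposited fold is a linear ratio of signal to local background, and significance is deposited as −log10 p and −log10 q, with a score that repeats the −log10 q. These values depend on depth. Percentiles were taken within a list, but each minimum was applied alike to both lists, so results under a minimum also depend on the unknown depths.

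Covered length counts the bp of the whole gene that lie under broad peaks; 500 bp makes a gene marked. Genes, strands and sequences came from RefSeq tables of GRCm38.p6. The length was checked on simulated intervals, and against bedtools 2.31.1 with 0 differences in 65 members. Peaks were shared at 1 bp of overlap. Python 3.11.15, numpy 2.4.6, pandas 2.3.3, scipy 1.17.1 and matplotlib 3.10.9 were used. The members, classes and lists were chosen with earlier results of these data known. One member is in the counts and sums but not reported here by name. Named are all members with a peak, and from 95 pathway entries (93 matched) the 5 genes longest under peaks in either library and, in each direction, the 3 that differ most. The class of Vamp9 was set after the data were seen. Alternatives changed the peak minimum, number or width, the gene region and the classes, and the closing section gives their effect.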

Additional observations from a re-analysis of the deposited data

How the results depend on the processing

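No paired analysis was possible because each condition has 1 library, and no replicate could be left out. Lists were not tested, so the limits are those of 2 libraries of unknown depth and of the calling threshold. Among 21 members marked in either library, 14 kept their direction wherever an alternative left a difference, and 14 showed none with a −log10 q of 5 or more. The endosomal ratio of lysine to PBS covered length was within 1.5 times the reported one except with peaks of 1 kb or more.

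With a −log10 q of 5 or more, members with a peak were 14 in lysine and 17 in PBS, members marked 4 and 2, members shorter 10 and longer 12, and 1 was shorter by 500 bp. The secretory ratio was then 2.038, and Stx6, Snap23 and Pdcd6ip turned to 662, 159 and 341 bp longer in lysine and Ubap1 to -336 bp. With a −log10 q of 2 or more the secretory ratio was 0.58 and Stx3 turned to -371 bp. At a fold of 4 or more 1 member was longer by 500 bp and the secretory ratio was 0.57, with Vps13b at 285, Stx3 at -371, Ubap1 at -490 and Ykt6 at -29 bp. With equal numbers of peaks 4 members were longer by 500 bp, the secretory ratio was 1.148 and Vps13b stood at 285 bp. With peaks of 1 kb or more, members with a peak were 0 in lysine and 6 in PBS, marked 0 and 5, shorter 6 and longer 0, by 500 bp 5 and 0, and the ratios were 0 for all, endosomal and secretory members and 0.233 for the other pathway genes. By narrow blocks 1 member was longer by 500 bp, the secretory ratio was 0.633, and Stx3, Pdcd6ip and Ykt6 stood at -371, 36 and -29 bp. With 2 kb added at each gene end, 20 members were marked in lysine and 31 in PBS, the secretory ratio was 1.031, and Vps13c, Stx5a and Vti1a stood at -127, -110 and 82 bp. Without the 17 members that overlap another gene, 18 were shorter and 16 longer in lysine, and the ratio over the members was 0.682. A marked gene of 200 bp gave 29 in lysine and 36 in PBS, and one of 1000 bp gave 2 and 8. For these counts of members the shares over all genes under the same alternatives are not given. With members of more than 1 site moved to their second class the secretory ratio was 1.335, and without Stx11 1.447. Leaving out Stx11, Stx4a, Stx7 or Vps13d, and keeping genes of 10 kb or more, were alternatives chosen after seeing the data. The cause of these shifts was not tested, beyond the fewer peaks, or members or other lengths, that each alternative counts. Of the member peaks, 33 of 34 in lysine and 30 of 34 in PBS were still shared when 0.5 of their length had to overlap.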

Other observations

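Vamp5 and Vamp8 are 4.75 kb apart on chromosome 6, and Vamp5 had 435 bp in lysine and 0 bp in PBS while Vamp8 had none in either library. Between Stx1a and Vps37d, 21.8 kb apart on chromosome 5 and both without a peak, lay a strong peak in each library (135063917 to 135064456 in lysine, 135063860 to 135064452 in PBS), with a −log10 q of 21.0 and 21.8. Of the members without a peak on the gene, Vps28 had a lysine peak 57 bp beyond its higher coordinate (76626141 to 76626931 on chromosome 15) with a −log10 q of 1.39. No strand was listed for Vps28, so whether this is its start or its end is not known here.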
